A study of Mus musculus with 18 samples.

Results

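Mouse bone marrow macrophages that had received apoptotic bodies induced by UV (UVABs, n = 5 libraries) were compared with macrophages that had received apoptotic bodies induced by STS (STSABs, n = 5), across all genes of the deposited table. These 10 of the 18 libraries of the series were chosen by their group labels. The bodies of both groups came from cells named hucMSC in the labels, and both treatments are described as anti-inflammatory. The labels give STS only as an abbreviation, which is kept here. Replicates 4 and 5 of UVABs are spelled UVAB4 and UVAB5, which the design text treats as the same treatment. The other libraries were LPS (n = 5), the positive control for inflammation with lipopolysaccharide, and Con (n = 3), a mock group. LPS served here as a common scale for both treatments, and Con entered the filter on low counts, the scaling and the estimate of the spread but no comparison. No dose, time, strain, age or sex is given, nor whether the macrophages of UVABs and STSABs also received LPS, nor whether a replicate was a culture or an animal of its own. Tests below measure the spread among libraries, and that spread may be technical.

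Apoptotic bodies are membrane-bound fragments that cells shed while they die. Macrophages recognise phosphatidylserine on their surface, engulf them and digest them in lysosomes, a process called efferocytosis. The uptake is known to dampen inflammatory cytokines and to load the phagocyte with cholesterol and other lipids, which sterol sensors such as the liver X receptors (LXR) answer with export. UV light starts apoptosis largely through damage to DNA. The comparison sets bodies induced in different ways against each other, by the transcripts of the cells that received them.

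Estimated counts summed to 17851457 to 18312800 per library in UVABs, 17588357 to 18675283 in STSABs and 18089053 to 18582823 in LPS. Levels below are in CPM, counts brought to a common library size after scaling for composition. The labelled cell type was visible in every library: 21 of 21 macrophage markers were tested, none was at 0, and together they summed to 15500 to 17200 CPM in UVABs, 14600 to 15910 CPM in STSABs and 17600 to 19380 CPM in LPS. In bulk samples fewer cells of a type and less RNA per cell cannot be told apart. Libraries numbered 2 stood apart within both groups. On the first principal component of log2 CPM, which held 31.8% of the variance among the 10 libraries, UVABs replicate 2 scored 30.03 and STSABs replicate 2 scored 26.69, while the other 8 libraries lay between -12.02 and -1.91. The treatments did not part on it. The mean scores were 0.706 ± 16.7 in UVABs and -0.704 ± 15.8 in STSABs (SD, n = 5 each; exact permutation test, two-sided, p = 0.746, where 0.00794 is the smallest p that 5 against 5 allow). On the second component, with 11.3% of the variance, the mean scores were 2.19 ± 10.8 in UVABs and -2.19 ± 7.71 in STSABs (SD; exact permutation test, n = 5 each, p = 0.492). The third, with 10.1%, gave 1.66 ± 7.19 in UVABs and -1.65 ± 10.4 in STSABs (exact permutation test, p = 0.571).

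On average a UVABs library was closest to the STSABs library of the same replicate number. Over 9924 genes with a mean of at least 50 counts, the root mean square log2 CPM difference between libraries of different treatment and the same number averaged 0.154, with a range of 0.136 to 0.189 over 5 pairs. Libraries of different treatment and different number averaged 0.222 over 20 pairs. Libraries of the same treatment averaged 0.223 within UVABs and 0.223 within STSABs, over 10 pairs each. Libraries that shared a number but not a treatment were thus nearer to each other on average than libraries that shared a treatment. Without the libraries numbered 2 the averages were 0.146 for different treatment and the same number, 0.17 for different treatment and number, 0.168 within UVABs and 0.176 within STSABs. Libraries numbered 2 averaged 0.3 from those with another number, and UVABs and STSABs libraries averaged 0.503 from LPS libraries. These distances describe pairs that share libraries, and no test was made of them. What set the libraries numbered 2 apart was not tested.

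**Figure D1:**
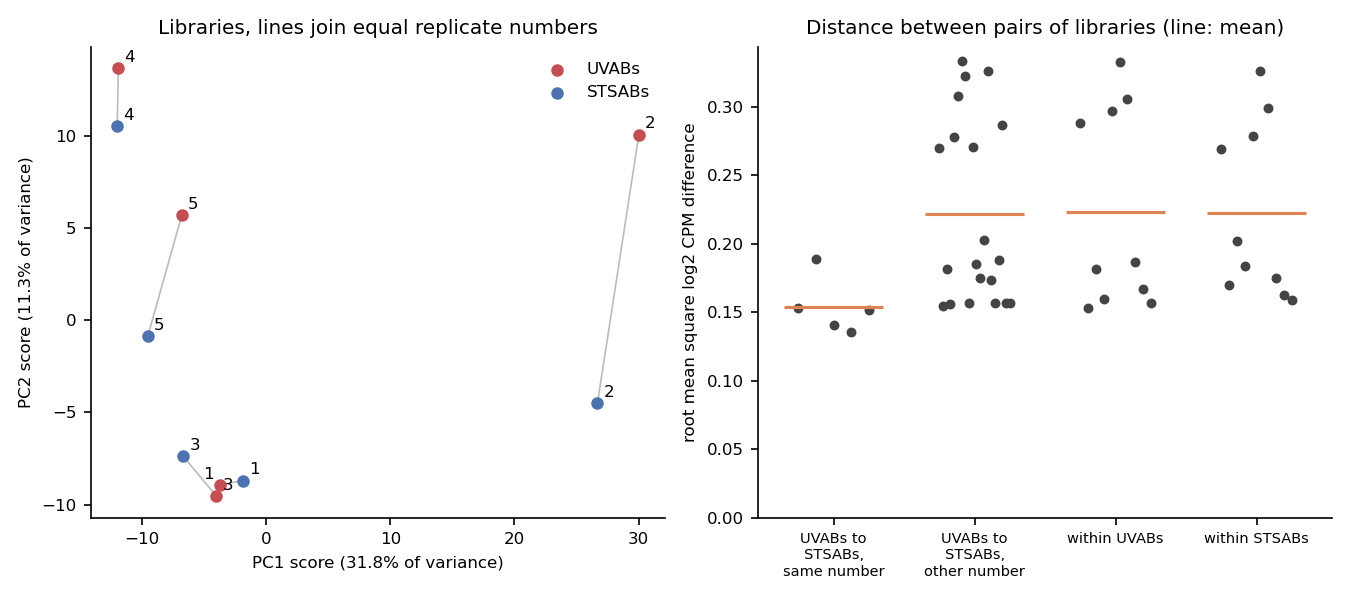
Left, scores of the 10 libraries on the first and second principal components of log2 CPM, with lines joining equal replicate numbers; right, the root mean square log2 CPM difference of each pair of libraries by kind of pair, with the mean as a line. Both libraries numbered 2 lie at 26.69 or above on the first component, the other 8 at -1.91 or below, and pairs of different treatment with the same number average 0.154, against 0.223 within UVABs.

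No gene was called different between UVABs and STSABs. Of 12465 genes tested, 0 passed a Benjamini-Hochberg adjusted p of 0.05 in edgeR's quasi-likelihood test (0%), and the smallest adjusted p was 0.9996. At an unadjusted p under 0.05 there were 198 genes (1.59%). A share near 0.05 would pass where nothing differs and the model holds, so the low count is no measure of likeness. DESeq2 also called 0 genes, with 151 at an unadjusted p under 0.05, and limma-voom called 0, with 191. With the replicate number as a block, edgeR called 0 of 11732 genes, with 457 (3.90%) at an unadjusted p under 0.05. Without both libraries numbered 2, edgeR called 0 of 12436 genes, with 226 at an unadjusted p under 0.05. The median log2 fold change of UVABs over STSABs was 0.0034, and the median of its size, without sign, was 0.044. The 5 UVABs libraries lay wholly above the 5 STSABs libraries for 17 genes and wholly below for 26, 43 genes in all (0.345%).

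A p that misses the threshold does not show that levels are alike, so likeness was tested by itself. A gene was called within 1.5-fold where its log2 fold change lay inside both bounds by 2 one-sided tests of the same fit, adjusted over all genes at 0.05. A gene called neither different nor within 1.5-fold is undecided. Within 1.5-fold lay 10980 genes (88.1%), and 1485 were undecided (11.9%). A narrower bound, 25% above to its reciprocal below, placed 8792 genes within it and left 3673 undecided, and a bound of 2-fold placed 11992 within it and left 473. The filter on low counts used all 4 groups, so it kept genes that a filter on UVABs and STSABs alone left out. With only UVABs and STSABs filtered and fitted, 826 of 11732 genes were undecided (7.04%). With the replicate block added, 11162 of the same 11732 genes were within 1.5-fold and 570 were undecided. Without the libraries numbered 2, 10881 genes were within 1.5-fold and 1555 undecided.

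Whether a gene was decided followed its abundance. Of 9924 genes with a mean of at least 50 estimated counts over the 10 libraries, 9885 were within 1.5-fold and 39 undecided. Of 2541 genes under 50 counts, 1095 were within 1.5-fold and 1446 undecided. Among genes with a mean under 10 counts, 738 of 745 were undecided, and their 95% interval reached 1.82-fold to each side of the estimate at the median. With 10 to 25 counts 578 of 915 were undecided (median reach 1.45-fold), with 25 to 50 counts 130 of 881 (1.29-fold), with 50 to 100 counts 29 of 1222 (1.2-fold), and with 100 to 250 counts 4 of 2061 (1.14-fold). From 250 to 1000 counts 5 of 3610 were undecided (1.11-fold), and at 1000 counts or more 1 of 3031 (1.09-fold), which was Arg1.

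**Figure D2:**
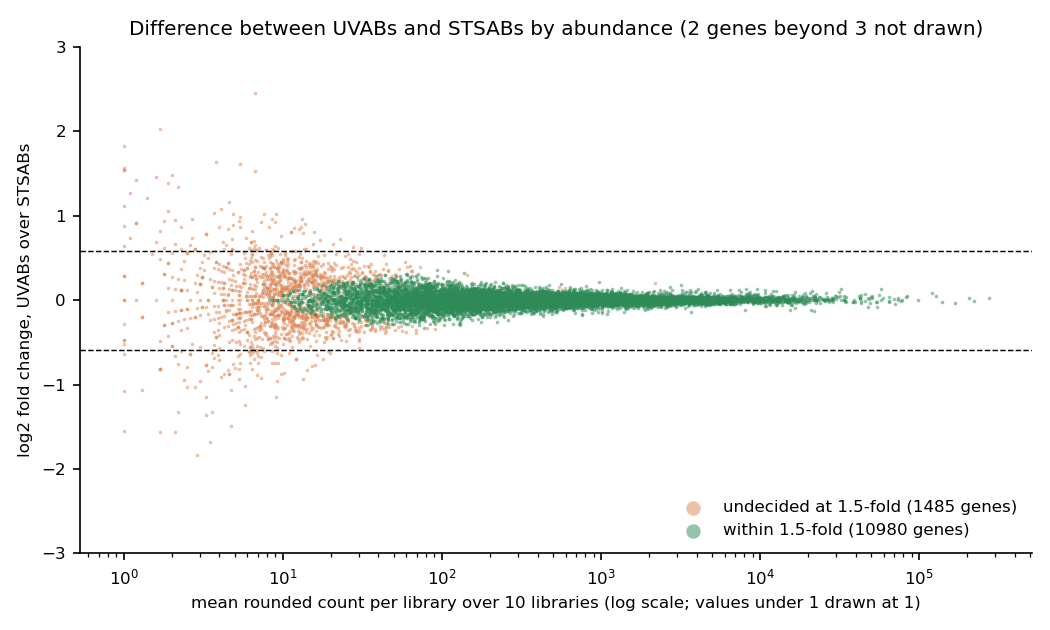
Log2 fold change of UVABs over STSABs for each gene tested, against its mean rounded count over the 10 libraries on a log axis; dashed lines mark 1.5-fold to each side, and 2 genes beyond a log2 fold change of 3 are not drawn. The 1485 undecided genes gather at low counts, and at 50 counts or more 9885 of 9924 genes are within 1.5-fold.

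The inflammatory panel held 16 genes, of which 0 were called (0% of all genes). Within 1.5-fold were 15, beside 88.1% of all genes, and Arg1 was undecided. Il6, a pro-inflammatory cytokine, was at 891, 934, 845, 923 and 950.2 CPM in replicates 1 to 5 of UVABs, at 894, 795, 857, 931 and 863 CPM in those of STSABs and at 1306, 1330.0, 1368, 1291 and 1399 CPM in those of LPS. The libraries of both treatments overlapped, and all lay below every LPS library. The log2 fold change of UVABs over STSABs was 0.066 ± 0.052 (SE), with a 95% interval of -0.042 to 0.17. Tnf, the cytokine tumour necrosis factor, was at 419, 277, 430.4, 405 and 409 CPM in replicates 1 to 5 of UVABs, at 419.5, 292, 413, 399 and 405 CPM in those of STSABs and at 590.5, 617, 635, 632 and 589 CPM in those of LPS. Replicate 2 was the lowest of its group in both treatments, and all 10 libraries lay below LPS. The difference was 0.0084 ± 0.099 (95% interval -0.20 to 0.21). Il1b, which encodes interleukin 1 beta, averaged 3886 ± 462 CPM in UVABs and 3780.0 ± 273 CPM in STSABs (SD, n = 5 each; 0.040 ± 0.074). Il12b, a subunit of interleukins 12 and 23, was at 3075, 1619, 3124, 3429 and 3101 CPM in replicates 1 to 5 of UVABs, at 3190.5, 1621, 3192, 3399 and 3236 CPM in those of STSABs and at 4099.6, 3770.0, 3834, 4115 and 2890.3 CPM in those of LPS. Replicate 2 again stood far below the other 4 libraries of each treatment, by about the same amount in both. The difference was -0.029 ± 0.17, and without the libraries numbered 2 it was -0.033.

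Ccl2, a chemokine that draws monocytes, was at 281, 412, 238, 345 and 307 CPM in replicates 1 to 5 of UVABs, at 282, 311, 259.9, 335 and 298 CPM in those of STSABs and at 749, 835, 829.8, 796 and 894 CPM in those of LPS. UVABs and STSABs overlapped, and every library of either lay below every LPS library. The log2 fold change was -1.37 for UVABs against LPS and -1.46 for STSABs against LPS, comparisons that share the LPS libraries, and 0.091 ± 0.10 between the treatments. Ccl5, a chemokine for T cells and monocytes, averaged 5000.0 ± 690.4 CPM in UVABs and 4864 ± 504 CPM in STSABs, and Cxcl10, an interferon-induced chemokine, averaged 3562 ± 392 CPM in UVABs and 3510.0 ± 293 CPM in STSABs (SD, n = 5 each). Their differences were 0.040 ± 0.091 and 0.021 ± 0.081. Ifit1, an interferon-induced RNA-binding protein, was among the closest, with 1345 ± 55.7 CPM in UVABs and 1347 ± 41.1 CPM in STSABs (SD, n = 5 each) and a difference of -0.0025 ± 0.070; its estimated counts were not whole in 14 of 18 libraries. Ifnb1, a type I interferon, was low at 1.32 CPM in UVABs and 1.31 CPM in STSABs (difference 0.0062 ± 0.20).

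Nos2, the inducible nitric oxide synthase, averaged 3056 ± 346 CPM in UVABs and 2962 ± 144 CPM in STSABs, and Ptgs2, the inducible cyclooxygenase, averaged 569.8 ± 95.5 CPM in UVABs and 561 ± 108 CPM in STSABs (SD, n = 5 each). Their differences were 0.045 ± 0.12 and 0.021 ± 0.11. Cd14, which hands LPS to its receptor, was at 1019, 1765, 956, 1039 and 1050.2 CPM in replicates 1 to 5 of UVABs, at 1079, 1425, 957, 1047 and 1002 CPM in those of STSABs and at 645, 748, 798, 687 and 738 CPM in those of LPS. Replicate 2 was highest in both treatments, and the other libraries of both fell into one narrow range above LPS. The difference was 0.081 ± 0.13. Tlr4, the receptor for LPS, averaged 41.5 ± 4.85 CPM in UVABs and 39.2 ± 4.97 CPM in STSABs (difference 0.083 ± 0.080), and the mannose receptor Mrc1 averaged 158 ± 14.1 CPM in UVABs and 154 ± 9.72 CPM in STSABs (difference 0.039 ± 0.059; SD, n = 5 each). Il10, an anti-inflammatory cytokine, was at 10.8, 7.01, 11.9, 9.26 and 9.87 CPM in replicates 1 to 5 of UVABs, at 11.2, 6.99, 11.7, 8.89 and 10.9 CPM in those of STSABs and at 18.4, 22.5, 20.96, 18.9 and 24.9 CPM in those of LPS. Both treatments covered the same range, wholly below LPS, and the difference was -0.023 ± 0.14 with a 95% interval of -0.32 to 0.28.

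**Figure D3:**
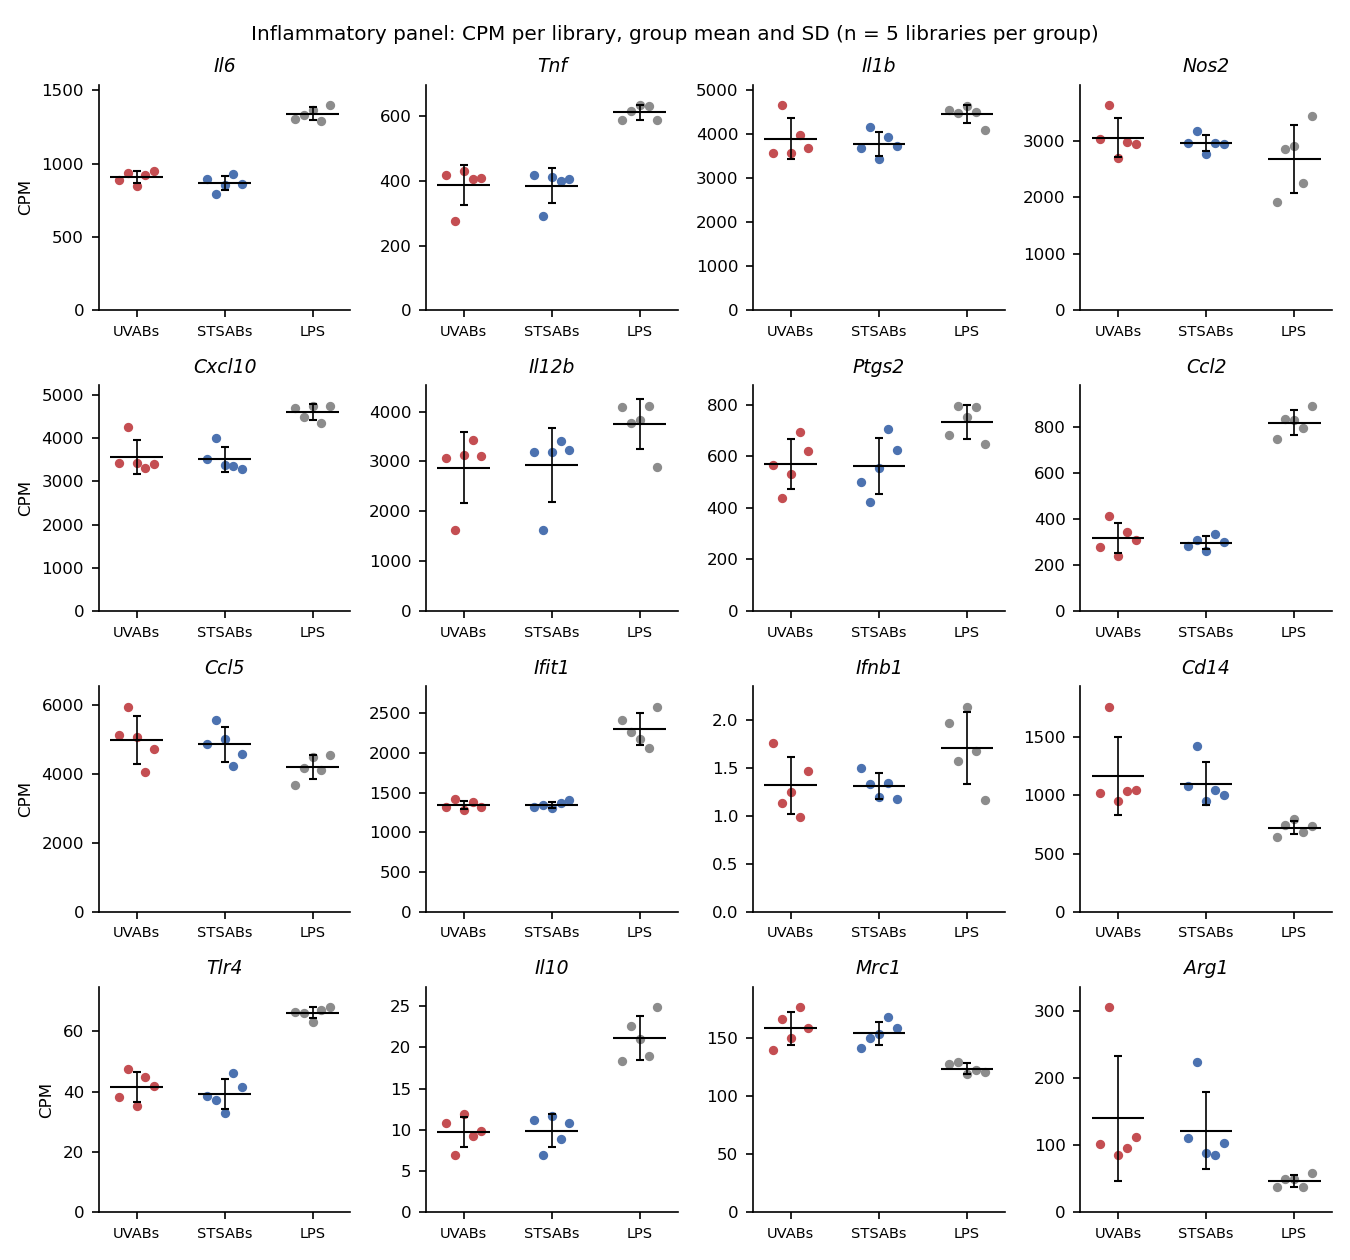
CPM of the 16 panel genes in each library of UVABs, STSABs and LPS, in replicate order within a group, with the mean as a line and the SD as an error bar (n = 5 each). UVABs and STSABs overlap in every panel, as in Il6 at 909 CPM in UVABs and 868 CPM in STSABs, and replicate 2 is the highest library of both for Arg1 and Cd14 and the lowest for Tnf and Il12b.

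Members of wider lists were, like the panel, mostly within 1.5-fold. The lists together held 737 genes, of which 677 were tested, 0 were called (0% of all genes) and 40 were undecided. Within 1.5-fold were 637 (94.1%), beside 88.1% of all genes and 99.6% of genes with a mean of at least 50 counts. Counts within 1.5-fold in the lists below are to be read against these shares, and no list was tested as a set. Their median log2 fold change was 0.0046 over the list members and 0.0034 over all genes. Of inflammatory cytokines and mediators 24 of 25 were within 1.5-fold, with log2 fold changes of -0.043 to 0.56 and a median of 0.036. The undecided member was Csf2, a growth factor for macrophages, which was low at 0.594 CPM in UVABs and 0.401 CPM in STSABs. Of chemokines 18 of 20 were within 1.5-fold (median 0.038), and Ccl24 and Cxcl5 were undecided. Cxcl2, which draws neutrophils, had the smallest p of that list and averaged 169.8 ± 34.95 CPM in UVABs and 153 ± 18.9 CPM in STSABs (SD, n = 5 each; difference 0.15 ± 0.11). All 30 interferon-stimulated genes tested were within 1.5-fold, with log2 fold changes of -0.042 to 0.062 and Rtp4 at 205 CPM in UVABs and 197 CPM in STSABs. All 20 tested genes of DNA and RNA sensing were too, among them Tlr3, a receptor for double-stranded RNA, at 58.8 CPM in UVABs and 54.9 CPM in STSABs. So were all 24 inhibitors that act in feedback on NF-kB and cytokine signals, among them Peli1, a ubiquitin ligase, at 168 CPM in UVABs and 175 CPM in STSABs.

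Genes for taking up and digesting dying cells were examined next. Of 27 genes of apoptotic cell uptake tested, 25 were within 1.5-fold, 0 were called and Itgb3 and Timd4 were undecided. Itgb3, an integrin subunit that binds bridging proteins on dying cells, was at 2.24, 1.74, 1.66, 2.10 and 1.59 CPM in replicates 1 to 5 of UVABs, at 2.43, 2.55, 2.34, 2.16 and 2.35 CPM in those of STSABs and at 2.81, 2.24, 1.78, 1.86 and 1.72 CPM in those of LPS. The treatments overlapped with each other and with LPS. The difference was -0.34 ± 0.15, and its edgeR unadjusted p of 0.0278 did not pass after adjustment (adjusted p = 0.9996). Over all lists 3 of 677 members had an unadjusted p under 0.05, Itgb3, Timd4 and Prkca, against 198 of 12465 genes in all. All 33 lysosome and autophagy genes were within 1.5-fold, including Ctsd, a lysosomal protease, at 2002 CPM in UVABs and 1829 CPM in STSABs. All 17 LXR targets were within it (median 0.016), including Scd2, a fatty acid desaturase, at 115 CPM in UVABs and 121 CPM in STSABs. All 23 genes of cholesterol synthesis were within it, and 17 of them were higher than LPS, and none lower, in the mean of both treatments (edgeR, adjusted p under 0.05; 30.8% of all genes were higher). Mvk, an enzyme of that pathway, averaged 7.96 CPM in UVABs, 8.67 CPM in STSABs and 5.96 CPM in LPS.

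Lists on DNA damage, p53 and protein kinase C were read in the macrophages that received the bodies, not in the cells that made them. None could hold a called gene, since 0 of 12465 genes were called. Of 26 genes of the DNA damage response and nucleotide excision repair all were within 1.5-fold, with a median of 0.012. Xpc, which recognises damaged DNA in nucleotide excision repair, was at 4.61, 4.19, 4.81, 4.83 and 4.41 CPM in replicates 1 to 5 of UVABs and at 4.29, 4.50, 4.07, 3.68 and 3.52 CPM in those of STSABs. The groups overlapped, and the difference was 0.19 ± 0.11. All 30 p53 targets and apoptosis regulators were within 1.5-fold (median 0.0063). Of protein kinase C and immediate early genes 21 of 25 were within 1.5-fold, and Fosl1, Fosb, Fos and Prkca were undecided. Prkca, which encodes protein kinase C alpha, was at 2.001, 1.86, 1.90, 2.10 and 1.29 CPM in replicates 1 to 5 of UVABs and at 2.26, 2.55, 2.40, 1.64 and 2.88 CPM in those of STSABs. The groups overlapped through replicate 4 of STSABs, and the edgeR unadjusted p of 0.0451 did not pass after adjustment.

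Metabolic and stress genes were mostly within 1.5-fold between the treatments, also where both stood far from LPS. Of 34 glycolysis genes and targets of the hypoxia-inducible factor HIF-1, 33 were within 1.5-fold and Ddit4 was undecided. In the mean of both treatments 33 of the 34 were higher than LPS, beside 30.8% of all genes. Their median log2 fold change was 0.82 (all genes: -0.0034). Summed, they took 16670 to 20280 CPM in UVABs, 16640 to 20060 CPM in STSABs and 11890 to 13110 CPM in LPS. UVABs and STSABs covered nearly the same range, which lay above LPS. All 35 genes of oxidative phosphorylation and all 23 of the tricarboxylic acid cycle were within 1.5-fold, including Sdhc, a subunit of succinate dehydrogenase, at 76.2 CPM in UVABs and 72.2 CPM in STSABs. Higd1a, a mitochondrial protein induced by hypoxia, had the smallest p of the HIF-1 list and averaged 41.9 CPM in UVABs, 38.9 CPM in STSABs and 22.9 CPM in LPS. Suclg2, a subunit of succinyl-CoA ligase, averaged 4.03 ± 0.260 CPM in UVABs and 4.65 ± 0.165 CPM in STSABs and was one of the genes whose groups did not overlap (SD, n = 5 each; difference -0.20 ± 0.11, 95% interval -0.43 to 0.019). Of genes of PPAR targets and fatty acid oxidation 23 of 25 were within 1.5-fold, of fatty acid amide and endocannabinoid genes 18 of 19, and of NRF2 targets 26 of 27. Cpt2, which imports fatty acids into mitochondria, averaged 18.03 CPM in UVABs and 19.5 CPM in STSABs, Daglb, a lipase that makes an endocannabinoid, 2.80 CPM in UVABs and 3.34 CPM in STSABs, and Nfe2l2, which encodes NRF2, 517 CPM in UVABs and 493 CPM in STSABs. All 26 genes of the responses to unfolded proteins and integrated stress and all 35 cell cycle genes were within it, among them Phgdh, an enzyme of serine synthesis, at 45.2 CPM in UVABs and 49.1 CPM in STSABs, and Mcm4, a replication helicase subunit, at 23.2 CPM in UVABs and 24.9 CPM in STSABs.

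Of 27 markers of alternative activation 22 were within 1.5-fold and Arg1, Folr2, Chil4, Ccl24 and Cd163 were undecided. Trem2, a lipid-sensing receptor, averaged 62.6 ± 7.33 CPM in UVABs and 57.6 ± 5.27 CPM in STSABs (SD, n = 5 each; difference 0.12 ± 0.072). Of 30 Toll-like receptor signalling genes 29 were within it, and Tlr5, the flagellin receptor, was undecided at 0.178 CPM in UVABs and 0.295 CPM in STSABs. All 18 genes of MHC class II and co-stimulation and all 19 tested of the inflammasome and pyroptosis were within 1.5-fold. The inflammasome list included Ninj1, which ruptures the membrane of dying cells, at 121 CPM in UVABs and 114 CPM in STSABs.

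Macrophages of both treatments differed from LPS in many genes. The mean of UVABs and STSABs differed from LPS in 7770 genes (62.3%; edgeR, adjusted p under 0.05), 3837 higher (30.8%) and 3933 lower (31.6%). Against LPS, 7161 genes were called for UVABs (57.4%) and 7158 for STSABs (57.4%); both comparisons use the same LPS libraries. At least 2-fold from LPS were 892 genes of the mean (7.16%), 596 higher and 296 lower. These are called the shared response below, and since the mean weights the treatments equally, choosing by it favours neither. The choice used the mean alone, so a gene of the set need not differ from LPS in each treatment. Tlr5 is in the set, with an adjusted p of 0.16 for UVABs against LPS in edgeR's test. Of the 892 genes 0 were called between UVABs and STSABs (0% of all genes). Within 1.5-fold were 604 (67.7%, beside 88.1% of all genes) and 288 were undecided (32.3%, beside 11.9%). In edgeR's test 28 had an unadjusted p under 0.05 (3.14%, beside 1.59%). Among the 596 higher than LPS 166 were undecided (27.9%) and 8 had an unadjusted p under 0.05 (1.34%). Among the 296 lower than LPS 122 were undecided (41.2%) and 20 had an unadjusted p under 0.05 (6.76%), and none of these passed after adjustment. These shares were not matched for abundance. Of the 467 shared response genes with a mean of at least 50 counts, 455 were within 1.5-fold (97.4%), beside 99.6% of all genes of that abundance. Of the 425 under 50 counts, 64.9% were undecided, beside 56.9% of all genes under 50 counts. In edgeR's test 4.94% of the 425 had an unadjusted p under 0.05, beside 3.70% of all genes under 50 counts. The median size of the shared response was 1.30 on the log2 scale, and the median size of the difference between the treatments in these genes was 0.092. The first median is large by choice, since the genes were taken for a change of at least 2-fold in these same libraries. For 634 of 892 genes (71.1%) the 95% interval of the difference lay inside 0.5 times the gene's own shared response. For 49 genes the interval reached the size of the shared response or passed it. The same choice of genes bears on both counts.

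Of the 8 genes furthest above LPS, 7 were within 1.5-fold between the treatments and Ddit4 was undecided. Bnip3, a mitochondrial protein induced by hypoxia, was at 142, 131, 138, 131 and 132 CPM in replicates 1 to 5 of UVABs, at 142, 132, 141, 125 and 141 CPM in those of STSABs and at 18.4, 25.9, 26.2, 21.3 and 32.8 CPM in those of LPS. Gys1, glycogen synthase, averaged 98.3 CPM in UVABs, 99.7 CPM in STSABs and 16.7 CPM in LPS. In both genes the treatments overlapped, and every library of either lay above every LPS library. The differences were -0.015 ± 0.092 and -0.021 ± 0.064, beside changes against LPS of 2.44 and 2.55 for UVABs and 2.45 and 2.57 for STSABs on the log2 scale. Klrb1b, a C-type lectin receptor, averaged 44.4 CPM in UVABs, 44.8 CPM in STSABs and 6.27 CPM in LPS, and Pou6f1, a transcription factor, averaged 9.25 CPM in UVABs, 9.10 CPM in STSABs and 1.65 CPM in LPS. Trib3, a pseudokinase induced by the integrated stress response, averaged 9.95 CPM in UVABs, 10.4 CPM in STSABs and 1.94 CPM in LPS. The log2 fold changes between the treatments were -0.010, 0.025 and -0.058, and all 3 genes were within 1.5-fold. Hilpda, a lipid droplet protein, was at 40.9, 98.6, 41.6, 41.9 and 50.6 CPM in replicates 1 to 5 of UVABs, at 43.97, 87.5, 39.7, 42.6 and 39.1 CPM in those of STSABs and at 6.22, 11.9, 10.3, 8.10 and 13.2 CPM in those of LPS. Replicate 2 was the highest of each treatment and the other libraries overlapped, all above LPS. Gls2, a glutaminase, averaged 21.2 CPM in UVABs, 21.1 CPM in STSABs and 4.16 CPM in LPS, with replicate 2 highest in both treatments.

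Of the 8 genes furthest below LPS, 4 were within 1.5-fold between the treatments. Lad1, an anchoring filament protein, was at 38.3, 19.9, 44.96, 39.01 and 42.00 CPM in replicates 1 to 5 of UVABs, at 43.04, 22.1, 41.99, 38.1 and 39.9 CPM in those of STSABs and at 205, 196, 187, 202 and 176 CPM in those of LPS. Replicate 2 was the lowest of each treatment, and both treatments lay wholly below LPS. Spic, a transcription factor known from macrophages that recycle iron, averaged 2.84 CPM in UVABs, 2.83 CPM in STSABs and 20.1 CPM in LPS, and Pla2g4f, a phospholipase, averaged 3.59 CPM in UVABs, 4.06 CPM in STSABs and 20.4 CPM in LPS. Apol9a, an interferon-induced apolipoprotein, averaged 2.29 CPM in UVABs, 2.39 CPM in STSABs and 11.5 CPM in LPS, with estimated counts that were not whole in 15 of 18 libraries. These 4 genes were within 1.5-fold, with differences of -0.0092, 0.0047, -0.18 and -0.060. The other 4 were undecided. Ccl24, a chemokine for eosinophils, averaged 1.08 CPM in UVABs, 1.12 CPM in STSABs and 13.6 CPM in LPS; its difference had a 95% interval of -0.89 to 0.78, beside changes against LPS of -3.65 for UVABs and -3.59 for STSABs. Shisa3, a membrane adaptor, averaged 0.617 CPM in UVABs, 0.848 CPM in STSABs and 5.14 CPM in LPS (interval -1.16 to 0.25), Ereg, an epidermal growth factor receptor ligand, averaged 2.19 CPM in UVABs, 1.84 CPM in STSABs and 13.9 CPM in LPS (interval -0.16 to 0.66), and Atp13a4, a cation transporter, averaged 1.03 CPM in UVABs, 1.23 CPM in STSABs and 5.70 CPM in LPS (interval -0.76 to 0.26). In the fit with the replicate block, Ccl24 and Ereg were within 1.5-fold, and Shisa3 and Atp13a4 were undecided.

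**Figure D4:**
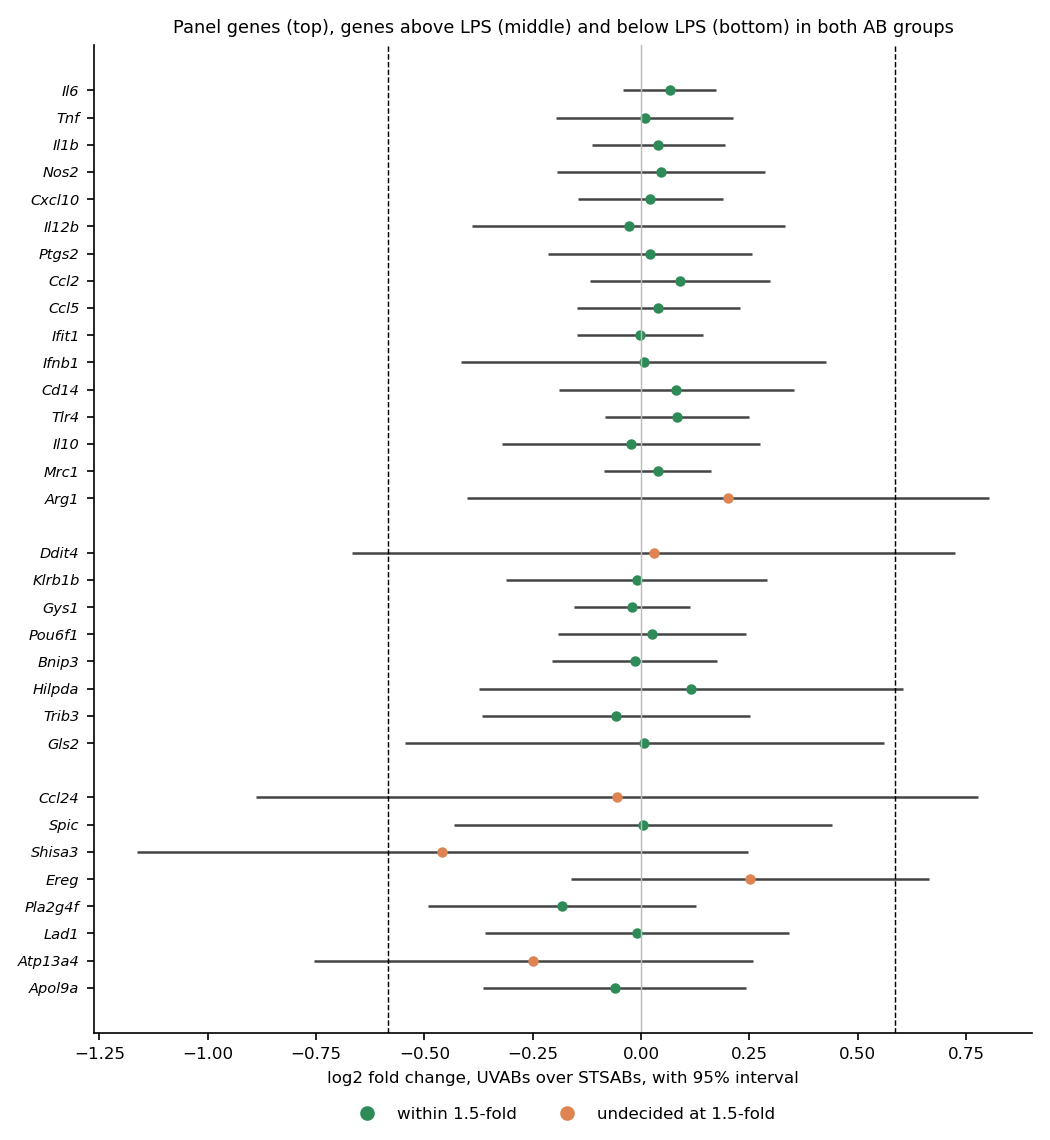
Log2 fold change of UVABs over STSABs with its 95% interval for the 16 panel genes and for the 8 largest shared changes above and below LPS; dashed lines mark 1.5-fold to each side. Points lie near 0 and colour gives the call, which rests on one-sided tests, so that Hilpda, with an interval of -0.37 to 0.61, is within 1.5-fold although its interval passes the line.

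The genes nearest to a difference are given as values that did not pass. Each had an adjusted p of at least 0.9996 in edgeR's test. They were taken among genes of at least 1 CPM in the higher group, without predicted genes, 1 of which had the smallest p of all genes tested (edgeR unadjusted p = 0.00067, UVABs above STSABs). Within these limits the smallest p with UVABs above STSABs belonged to Kank2, an adaptor of cell adhesions, which was at 1.27, 1.08, 0.713, 1.28 and 0.999 CPM in replicates 1 to 5 of UVABs and at 0.521, 0.669, 0.299, 0.468 and 0.881 CPM in those of STSABs. The groups overlapped, at low levels. Its log2 fold change was 0.90 ± 0.27 (95% interval 0.34 to 1.47, edgeR unadjusted p = 0.00255), and it was undecided. Stim2, a calcium sensor of the endoplasmic reticulum, was at 28.7, 30.4, 28.7, 28.1 and 32.1 CPM in replicates 1 to 5 of UVABs and at 26.7, 24.3, 26.4, 27.7 and 26.03 CPM in those of STSABs. The lowest UVABs library lay just above the highest STSABs library, and the difference of 0.17 ± 0.052 was within 1.5-fold (95% interval 0.067 to 0.28). Trappc2l, a subunit of the vesicle-tethering TRAPP complex, averaged 20.5 ± 0.818 CPM in UVABs and 18.1 ± 0.623 CPM in STSABs (SD, n = 5 each), without overlap of the groups, and was within 1.5-fold at 0.18 ± 0.061. Med26, a subunit of Mediator, Fdxacb1 and Ccdc163 were also within 1.5-fold, at 0.32, 0.31 and 0.29. Zbed3, an Axin-binding protein, Ces2b, a carboxylesterase, Syt11, a synaptotagmin, and Srms, a tyrosine kinase, were undecided at 0.39, 0.81, 0.55 and 0.67. Zbed3 was within 1.5-fold in the fit with the replicate block. Estimated counts of Ces2b were not whole in 18 of 18 libraries and those of Syt11 in 6.

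With UVABs below STSABs, the smallest p within the same limits belonged to Adat2, a subunit of an enzyme that edits transfer RNA. It was at 1.27, 1.74, 1.54, 1.46 and 1.17 CPM in replicates 1 to 5 of UVABs and at 1.97, 2.43, 2.04, 2.16 and 2.06 CPM in those of STSABs. No UVABs library reached the lowest STSABs library, and the log2 fold change was -0.57 ± 0.17 (95% interval -0.92 to -0.21, edgeR unadjusted p = 7.24e-04). Rbm48, a splicing factor for minor introns, averaged 3.08 ± 0.371 CPM in UVABs and 3.99 ± 0.475 CPM in STSABs, and Trp53rkb, a gene related to a p53-regulating kinase, averaged 1.48 ± 0.135 CPM in UVABs and 2.08 ± 0.180 CPM in STSABs (SD, n = 5 each). The groups did not overlap in either gene, both were undecided, and the estimated counts of Trp53rkb were not whole in 18 of 18 libraries. Rps6ka1, a kinase downstream of ERK, was the most abundant of the 10 and averaged 49.7 ± 2.38 CPM in UVABs and 55.4 ± 3.69 CPM in STSABs (SD, n = 5 each). The groups overlapped, and its difference of -0.16 ± 0.050 was within 1.5-fold. Hmcn2, an extracellular matrix protein, Nat10, an RNA acetyltransferase, Ncbp2, a subunit of the nuclear cap-binding complex, and Mrps9, a mitochondrial ribosomal protein, were within 1.5-fold at -0.28, -0.33, -0.21 and -0.17. Rprm, a cell cycle arrest gene induced by p53, and Aff3, a nuclear protein of transcription elongation, were undecided at -0.60 and -0.70.

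Among genes with at least 50 mean counts, those left undecided were mostly genes on which replicate 2 was the highest or the lowest library of both treatments, by any margin. Of the 39, replicate 2 was the highest of its group in both treatments for 24 and the lowest in both for 7, together 31 (79.5%), beside 4487 of all 9924 genes of that abundance (45.2%). Genes are undecided in part for a wide spread within groups, so the higher share was partly fixed by the choice of genes. With the replicate block 29 of the 39 were within 1.5-fold. Estimated counts were not whole in 1 or more libraries for 6 of the 39. Only 6 of the 39 averaged at least 10 CPM over the 10 libraries, and replicate 2 was the highest in both treatments for all 6.

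Arg1, an arginase used as a marker of alternative activation, was at 102, 306, 85.05, 96.1 and 112 CPM in replicates 1 to 5 of UVABs, at 111, 223, 87.99, 85.2 and 103 CPM in those of STSABs and at 37.8, 49.4, 49.9, 38.5 and 59.1 CPM in those of LPS. Replicate 2 was by far the highest library of both treatments, and the remaining 8 libraries overlapped, all above LPS. The log2 fold change of UVABs over STSABs was 0.20 ± 0.29 (95% interval -0.40 to 0.80), 0.031 without the libraries numbered 2, and 0.13 with the replicate block (95% interval 0.015 to 0.25; edgeR adjusted p = 0.997). Arg1 was undecided in the first and within 1.5-fold in the other two. Ppbp, a platelet chemokine, was at 30.8, 102, 21.97, 31.3 and 28.8 CPM in replicates 1 to 5 of UVABs and at 33.5, 75.6, 24.1, 33.1 and 34.5 CPM in those of STSABs. Ramp3, a partner of receptors for calcitonin-family peptides, was at 24.7, 100.2, 19.7, 18.1 and 24.97 CPM in replicates 1 to 5 of UVABs and at 23.3, 85.1, 20.4, 18.9 and 21.6 CPM in those of STSABs. In both genes replicate 2 of each treatment stood far above every other library. The interval was -0.57 to 0.76 for Ppbp and -0.73 to 1.03 for Ramp3, and with the block -0.13 to 0.17 and 0.0018 to 0.22.

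Fos, an immediate early transcription factor, was at 14.4, 60.7, 28.4, 31.6 and 34.5 CPM in replicates 1 to 5 of UVABs and at 16.2, 56.1, 30.5, 33.2 and 16.6 CPM in those of STSABs. Here replicate 1 of both treatments and replicate 5 of STSABs were also low, and the groups overlapped. Ddit4, an inhibitor of mTORC1 induced by hypoxia and stress, was at 17.6, 44.4, 12.5, 11.6 and 14.2 CPM in replicates 1 to 5 of UVABs, at 18.02, 41.2, 13.7, 10.99 and 14.5 CPM in those of STSABs and at 1.86, 2.12, 1.04, 1.44 and 2.88 CPM in those of LPS. Replicate 2 was again highest in both treatments, and all 10 libraries lay above LPS. Mmp9, a matrix metalloproteinase, was at 13.2, 43.2, 11.05, 7.69 and 13.04 CPM in replicates 1 to 5 of UVABs and at 13.7, 34.2, 10.1, 8.42 and 12.4 CPM in those of STSABs, with the same libraries high. The 95% intervals were -0.51 to 0.82 for Fos, -0.67 to 0.72 for Ddit4 and -0.62 to 0.94 for Mmp9, and with the block -0.055 to 0.37, -0.11 to 0.13 and -0.024 to 0.27. All 3 were within 1.5-fold with the block, and Ddit4 and Mmp9, but not Fos, also without the libraries numbered 2. The next most abundant undecided genes were Cd300ld, an immunoglobulin-like receptor, Cxcl5, a neutrophil chemokine, and the transporters Slc4a11 and Slc1a4, at differences of 0.30, 0.20, 0.19 and 0.14. Cd300ld averaged 9.42 CPM in UVABs and 7.64 CPM in STSABs, and Cxcl5 averaged 7.35 CPM in UVABs and 6.40 CPM in STSABs. Slc4a11 averaged 6.65 CPM in UVABs and 5.84 CPM in STSABs, and Slc1a4 averaged 6.50 CPM in UVABs and 5.92 CPM in STSABs. All 4 were within 1.5-fold with the block and without the libraries numbered 2.

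**Figure D5:**
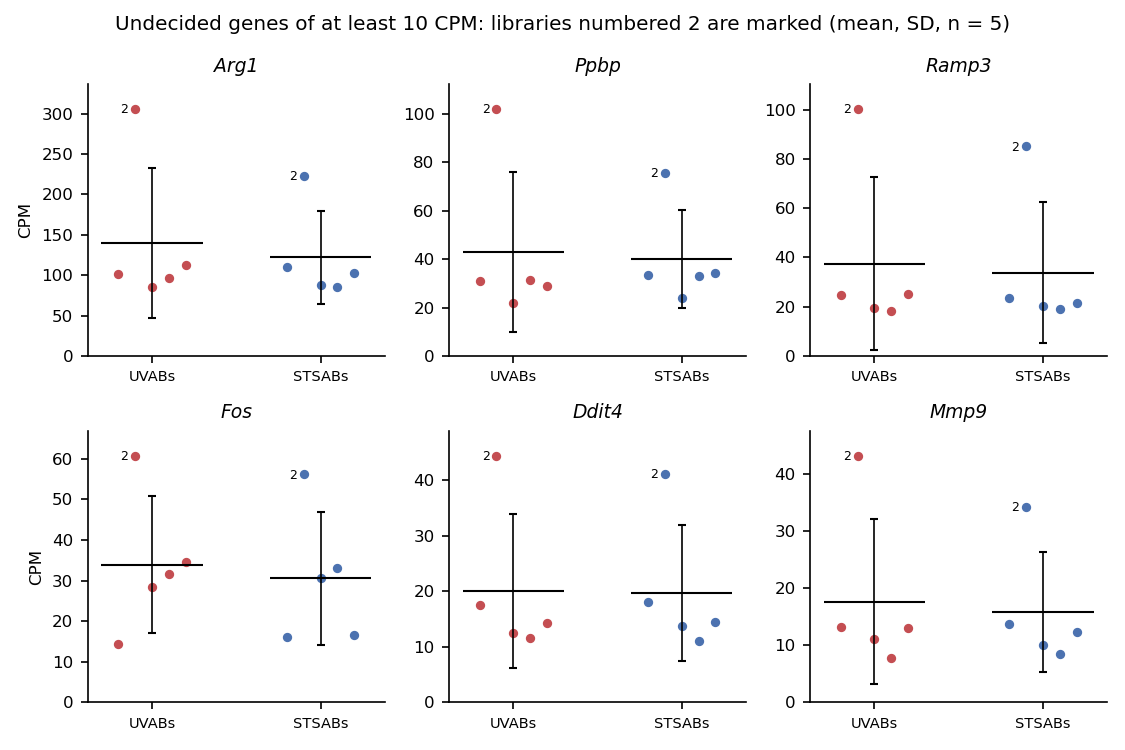
CPM of the 6 undecided genes of at least 10 CPM in each library of UVABs and STSABs, in replicate order, with the mean as a line and the SD as an error bar (n = 5 each); replicate 2 is marked. Replicate 2 is the highest library of both treatments in every panel, as in Arg1 at 306 CPM in UVABs and 223 CPM in STSABs.

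The genes with the heaviest weights on the first principal component were examined after their values were seen, and no test was made of them. Among those high in replicate 2 was Mfge8, which bridges dying cells to phagocytes, at 1699 CPM in UVABs and 1730.2 CPM in STSABs, beside 699.8 to 821 CPM in the other 4 UVABs libraries and 693 to 831 CPM in the other 4 STSABs libraries. The matrix metalloproteinase gene Mmp19 was at 574 CPM in UVABs and 488 CPM in STSABs, beside 186 to 220.3 CPM in the other 4 UVABs libraries and 182 to 217 CPM in the other 4 STSABs libraries. Among those low in replicate 2 was Fabp4, a fatty acid carrier, at 13.9 CPM in UVABs and 16.1 CPM in STSABs, beside 36.8 to 43.6 CPM in the other 4 UVABs libraries and 33.7 to 43.8 CPM in the other 4 STSABs libraries. Ear2, a ribonuclease of myeloid cells, was at 57.3 CPM in UVABs and 55.3 CPM in STSABs, beside 113 to 132 CPM in the other 4 UVABs libraries and 109 to 135 CPM in the other 4 STSABs libraries. All 4 genes were within 1.5-fold between the treatments, at -0.021, 0.090, 0.048 and 0.026.

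Summed markers of other cell types overlapped between UVABs and STSABs for every list. The 16 markers of neutrophils and granulocyte precursors summed to 4242 to 5431 CPM in UVABs, 4218 to 6111 CPM in STSABs and 2506 to 3302 CPM in LPS, and 13 of them were within 1.5-fold. The 14 markers of dendritic cells summed to 7090 to 8122 CPM in UVABs, 7114 to 8091 CPM in STSABs and 6883 to 7456 CPM in LPS. Of these, 12 were tested and 11 were within 1.5-fold. The sums were low for T and NK cells (23.0 to 28.63 CPM in UVABs, 22.61 to 28.15 CPM in STSABs and 20.89 to 24.2 CPM in LPS), for B cells and plasma cells (12.53 to 13.89 CPM in UVABs, 11.14 to 14.89 CPM in STSABs and 11.37 to 15.77 CPM in LPS) and for erythroid cells (9.941 to 15.27 CPM in UVABs, 12.76 to 15.07 CPM in STSABs and 7.843 to 11.23 CPM in LPS). Mast cell and basophil markers summed to 690.3 to 833.8 CPM in UVABs, 698.7 to 1007 CPM in STSABs and 527.6 to 581.4 CPM in LPS, and Prss34, a basophil protease, was undecided at 4.74 CPM in UVABs and 6.004 CPM in STSABs. Stromal markers summed to 2329 to 2525 CPM in UVABs, 2341 to 2598 CPM in STSABs and 1946 to 2115 CPM in LPS, markers of endothelial cells and platelets to 825.5 to 904.9 CPM in UVABs, 813.2 to 928.9 CPM in STSABs and 671.6 to 759.9 CPM in LPS and osteoclast markers to 419.3 to 515.8 CPM in UVABs, 419 to 452.4 CPM in STSABs and 485.7 to 523.4 CPM in LPS. Every library of UVABs and STSABs lay above every LPS library in the sums for neutrophils, mast cells and basophils, stromal cells, and endothelial cells and platelets, and below every LPS library in the sum for macrophages. In the mean of both treatments against LPS, 15 of 16 neutrophil markers were higher, as were 6 of 8 markers tested of mast cells and basophils and 5 of 7 of endothelial cells and platelets, with 0, 1 and 1 lower (edgeR, adjusted p under 0.05). Of 12 stromal markers 5 were higher and 4 lower, and of 21 macrophage markers 5 were higher and 11 lower. Of all genes 30.8% were higher and 31.6% lower by the same test, and the stromal counts were not far from these shares. The part of any of these cell types in the shared response was not tested. At 0 in all 10 libraries of UVABs and STSABs were Vpreb3 of the B cell list, Alas2 of the erythroid list, Mcpt4 of the mast cell list and Tek of the endothelial list. No marker of any list was called between UVABs and STSABs, as no gene was, and 19 of 21 macrophage markers were within 1.5-fold (all genes: 88.1%). Within 1.5-fold were also 3 of 6 tested markers of T and NK cells, 2 of 5 of B cells and plasma cells, 1 of 3 of erythroid cells, 6 of 8 of mast cells and basophils, 8 of 12 of stromal cells, 6 of 7 of endothelial cells and platelets and 7 of 10 of osteoclasts. The macrophage markers that were undecided were Cx3cr1, the fractalkine receptor, at 0.439 CPM in UVABs and 0.283 CPM in STSABs, and Cd163, a scavenger receptor.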

How the data were processed

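The 18 libraries were made from poly(A) RNA of macrophages from mouse bone marrow. Per the labels' protocols they are stranded (dUTP method) and were read as pairs. The submitters' processing notes name HISAT2 and mm39; which counter, strand setting and annotation were used is not given in the sources used here. Estimated counts of 16909 gene symbols were deposited, with no normalization. Of these values 6.35% were not whole, in 2017 genes, so estimated counts were rounded. Genes that share reads with close relatives, and overlapping or antisense genes, are uncertain. No coordinates are given, because a reference of that build was not used here.

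After filterByExpr 12465 genes, holding 99.97% of the counts, were tested. TMM scaling was used (mean factors 0.928 in UVABs, 0.932 in STSABs, 0.902 in LPS and 1.51 in Con), with the quasi-likelihood F-test of edgeR 4.0.16 in R 4.3.3. The fit held the means of all 4 groups and no covariate, and p-values were adjusted by Benjamini-Hochberg at 0.05. Contrasts were UVABs over STSABs, each over LPS, and their mean over LPS. Likeness used 2 one-sided tests with the standard error and degrees of freedom of that fit, no smaller than the Poisson error, against 1.5-fold (also 2-fold and a bound of 25%). Principal components used log2 CPM with a prior count of 2. Scores were compared by exact permutation. Totals of 17588357 to 18675283 counts per library set the precision. No 2 libraries were as close as sampling noise. The fit was tested on simulated counts. These were drawn library by library with no effect shared by replicate number, so the fit was not tested for such pairs.

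The members, gene lists and rules were chosen with earlier results of these data known. The text names the panel, up to 10 genes with the smallest p in each direction (at least 1 CPM), up to 10 undecided genes by CPM and by interval width (at least 10 CPM), the 8 largest shared responses in each direction (at least 5 CPM), and the member with the smallest p of each list. Predicted genes are counted and not named, and other names were chosen after their values were seen.

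Replicate numbers were taken as pairs only in some alternatives, and the main fit held no term for them. Residuals of same-numbered libraries of UVABs and STSABs correlated at 0.116, 0.54, 0.129, 0.288 and 0.137 for numbers 1 to 5 (limit 0.1); this comes from the data, since the labels do not say what a number marks. Residuals of libraries of different treatment and number correlated at -0.346 to 0.154. The best match in the other treatment had the same number for 8 of 10 libraries, and was number 4 for both libraries numbered 5. Without number 2 the same-number values were 0.149, 0.089, 0.17 and 0.0508 for numbers 1, 3, 4 and 5. Alternatives were other scalings, DESeq2 1.42.0, limma-voom (limma 3.58.1), other filters, fits of only the groups compared, the replicate block, a term for replicates 1 to 3 against 4 and 5, replicates 1 to 3 only, fits without the libraries numbered 2, and each library left out. The block together with no libraries numbered 2 was added after seeing the data.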

Additional observations from a re-analysis of the deposited data

Results flagged for a closer look

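Single libraries stood far from the other 4 of their group in 42 of 190 groups examined (92 genes and 3 principal components, UVABs and STSABs each), a gap of over 0.71 of the group's range; chance gives about 1 in 20. The share cannot be read against chance, since 10 of the genes were named for being undecided, and so in part for a wide spread. These 10 gave 15 of the 42, in 20 groups, and the other items gave 27 in 170 groups. Replicate 2 was that library in 41 of the 42, and for 16 items in both treatments. The scores on the first principal component were 30.03 in UVABs replicate 2 and 26.69 in STSABs replicate 2.

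High in replicate 2 of both treatments were Arg1 at 306 CPM in UVABs replicate 2 (others 85.05 to 112) and 223 CPM in STSABs replicate 2 (others 85.2 to 111), Cd14 at 1765 CPM in UVABs replicate 2 (others 956 to 1050.2) and 1425 CPM in STSABs replicate 2 (others 957 to 1079) and Ddit4 at 44.4 CPM in UVABs replicate 2 (others 11.6 to 17.6) and 41.2 CPM in STSABs replicate 2 (others 10.99 to 18.02). Gls2 was at 41.5 CPM in UVABs replicate 2 (others 13.4 to 19.1) and 40.2 CPM in STSABs replicate 2 (others 14.9 to 18.02). Hilpda was at 98.6 CPM in UVABs replicate 2 (others 40.9 to 50.6) and 87.5 CPM in STSABs replicate 2 (others 39.1 to 43.97). Klrb1b was at 69.5 CPM in UVABs replicate 2 (others 36.4 to 41.2) and 60.7 CPM in STSABs replicate 2 (others 38.1 to 42.9). Mmp9 was at 43.2 CPM in UVABs replicate 2 (others 7.69 to 13.2) and 34.2 CPM in STSABs replicate 2 (others 8.42 to 13.7). Ppbp was at 102 CPM in UVABs replicate 2 (others 21.97 to 31.3) and 75.6 CPM in STSABs replicate 2 (others 24.1 to 34.5). Ramp3 was at 100.2 CPM in UVABs replicate 2 (others 18.1 to 24.97) and 85.1 CPM in STSABs replicate 2 (others 18.9 to 23.3). Slc1a4 was at 13.2 CPM in UVABs replicate 2 (others 4.001 to 5.35) and 10.7 CPM in STSABs replicate 2 (others 4.49 to 4.93). Slc4a11 was at 13.8 CPM in UVABs replicate 2 (others 4.02 to 5.64) and 10.7 CPM in STSABs replicate 2 (others 4.11 to 4.97).

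Low in replicate 2 of both treatments were Il12b at 1619 CPM in UVABs replicate 2 (others 3075 to 3429) and 1621 CPM in STSABs replicate 2 (others 3190.5 to 3399) and Tnf at 277 CPM in UVABs replicate 2 (others 405 to 430.4) and 292 CPM in STSABs replicate 2 (others 399 to 419.5). Lad1 was at 19.9 CPM in UVABs replicate 2 (others 38.3 to 44.96) and 22.1 CPM in STSABs replicate 2 (others 38.1 to 43.04). Shisa3 was at 0.240 CPM in UVABs replicate 2 (others 0.646 to 0.788) and 0.182 CPM in STSABs replicate 2 (others 0.869 to 1.12).

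The gap was passed in UVABs and not in STSABs for a few genes, each with replicate 2 of UVABs highest. Ctsd was at 2718 CPM (others 1741 to 1876), Cxcl10 at 4258 (others 3313 to 3429.6), Cxcl5 at 15.3 (others 4.16 to 5.93), Syt11 at 3.23 (others 1.80 to 1.94) and Trem2 at 75.2 (others 55.8 to 60.7). Of these, Cxcl5 was also highest in STSABs replicate 2, at 10.6 CPM, as were Ctsd, Cxcl10 and Trem2. The gap was passed in STSABs and not in UVABs, with replicate 2 of STSABs highest, for a few others. Ctsg was at 4.62 CPM (others 2.53 to 2.92), Itga2b at 29.2 (others 15.03 to 18.7), Itgae at 8.02 (others 3.71 to 4.40) and Sdhc at 81.03 (others 68.4 to 71.7). Of these, Itga2b, Itgae and Sdhc were also highest in UVABs replicate 2. Cpt2, an enzyme of fatty acid import into mitochondria, was low in UVABs replicate 5 at 16.1 CPM (others 18.2 to 18.9). No flagged gene was called between UVABs and STSABs by edgeR.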

How the results depend on the processing

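Under all 31 alternatives that gave such a count no gene was called between UVABs and STSABs, and all 2837 values of named genes stayed uncalled. The count of undecided genes moved by over 1.5 times under 7 settings. It was 6035 with no filter on low counts, where more genes were tested, and 487 with a filter of at least 1 CPM in at least 5 libraries, where fewer were. It was 826 in a fit of only the groups compared, 570 with the replicate block, and 715 with the block and no libraries numbered 2. It was 3673 for the narrower bound of 25% and 473 for a bound of 2-fold. With the block no gene was called different. Of 34 named genes that were undecided, 30 were in the fit with the block, where 15 were within 1.5-fold. None of the 58 named genes within 1.5-fold became undecided with the block. Under other settings some did, most often Gls2, under 9 settings, and Hilpda, under 7. Calls for the mean of both treatments against LPS numbered 7946 with the block and 7549 in a fit of the same groups without it. Shared response genes within 1.5-fold numbered 659 of 800 with the block and 595 of 799 without it.

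Leaving out 1 library at a time gave 0 called genes in each of 18 fits. It gave 10801 to 10977 genes within 1.5-fold, 1479 to 1655 undecided, 7329 to 7828 called for the mean of both treatments against LPS, and 543 to 616 shared response genes within 1.5-fold, with 0 called. The difference between UVABs and STSABs in mean score ranged over -6.79 to 8.92 on the first component and -0.0836 to 8.12 on the second, and so changed sign. With the replicate numbers as pairs the exact sign-flip p was 0.188 and 0.25, where 5 pairs allow none below 0.0625. Without both libraries numbered 2, 0 of 12436 genes were called. Of genes under 50 mean counts 1446 of 2541 were undecided, and depth was not varied.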
